A study of Mus musculus with 6 samples.

Results

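Transcript signals of 48 cell cycle and DNA replication genes were examined in mouse tibialis anterior, the main ankle-flexing muscle of the shin. The members were chosen by gene name and fall into 3 roles: 21 for DNA replication and its nucleotide supply, 17 for chromosome condensation and mitosis, and 10 for control of the G1 phase and the entry into replication. A member was followed where the array, an Affymetrix MGU74Av2 of short oligonucleotide probes, held a probe set annotated to that gene alone. This gave 45 of the 48 members on 63 probe sets, against 8251 genes on the whole array: 20 replication, 15 mitosis and 10 G1 members. Tyms was represented only by 2 probe sets that also name a pseudogene, and Ccnb1 and Bub1b by none annotated to them alone, so these 3 members were not analysed here.

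Proliferating cells license their replication origins in G1 by loading the MCM helicase, fire the origins and copy the genome in S phase, and then condense and separate the chromosomes in mitosis. Genes for the replication machinery are classic targets of E2F factors, which cyclin D and cyclin E kinases release in G1, whereas mitotic genes peak later in the cycle. Muscle fibres themselves have left the cycle, and in injured muscle the cells known to divide include satellite cells, macrophages and other infiltrating or stromal cells.

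The samples were 3 RNA pools, each from the tibialis anterior of 4 mice killed 48 h after stimulation with a non-invasive model. The eccentric pool came from legs given 50 contractions during which the muscle lengthened, and the isometric pool from legs given 50 contractions without lengthening. The control pool came from the opposite, non-exercised legs of exercised animals, which had been stimulated only as far as a torque measurement needs. The labels give no strain, sex, age or genotype, and do not say which exercised animals the control legs came from. Each pool was hybridised to 2 arrays, lettered A and B, so a group is 1 biological sample: the spread between its arrays holds labelling and hybridisation error but not the variation between animals. Eccentric, isometric and control legs are therefore compared by size; p-values from limma, run as an alternative, compare the arrays of these pools and not the conditions.

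The 6 arrays had nearly equal scale, with median signals of 186.9 to 197.25. A floor of 120.8, the 40th percentile of all values, was set under the signals. A gene counts here as measured if at least 1 of the 2 pools compared has its 2 arrays over that floor. It counts as higher or lower if its mean log2 signals are 1 or more apart (2-fold) and the arrays of the pools do not overlap, so that the 4 possible pairings of arrays point the same way. Array A minus array B, in log2 signal, had an SD across genes of 0.63 over 33 members in control. It was 0.32 over 40 members in eccentric and 0.40 over 36 in isometric. For all genes these SDs were 0.43, 0.30 and 0.42 in the same order. Much of the control value for the members comes from Ccna2 (164.6 and 897.4 on the control arrays) and Mcm5 (143.8 and 357.1). It therefore does not show wider disagreement of the control arrays over the members as a set. All 12 muscle fibre markers lay above the floor on all 6 arrays.

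The members were detected about as often as other genes. Of the 45, 27 lay above the floor on all 6 arrays (60%, against 58.6% of all genes) and 4 below it on all 6, against 1791 of 8251 genes. Above it on all 6 were 14 of 20 replication, 7 of 15 mitosis and 6 of 10 G1 members. Mcm6, an MCM subunit, Prim1 and Prim2, the subunits of the primase that lays down RNA primers, and Bub1, a spindle checkpoint kinase, lay below the floor on every array. For these 4 no difference could be measured at this signal.

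**Figure D1:**
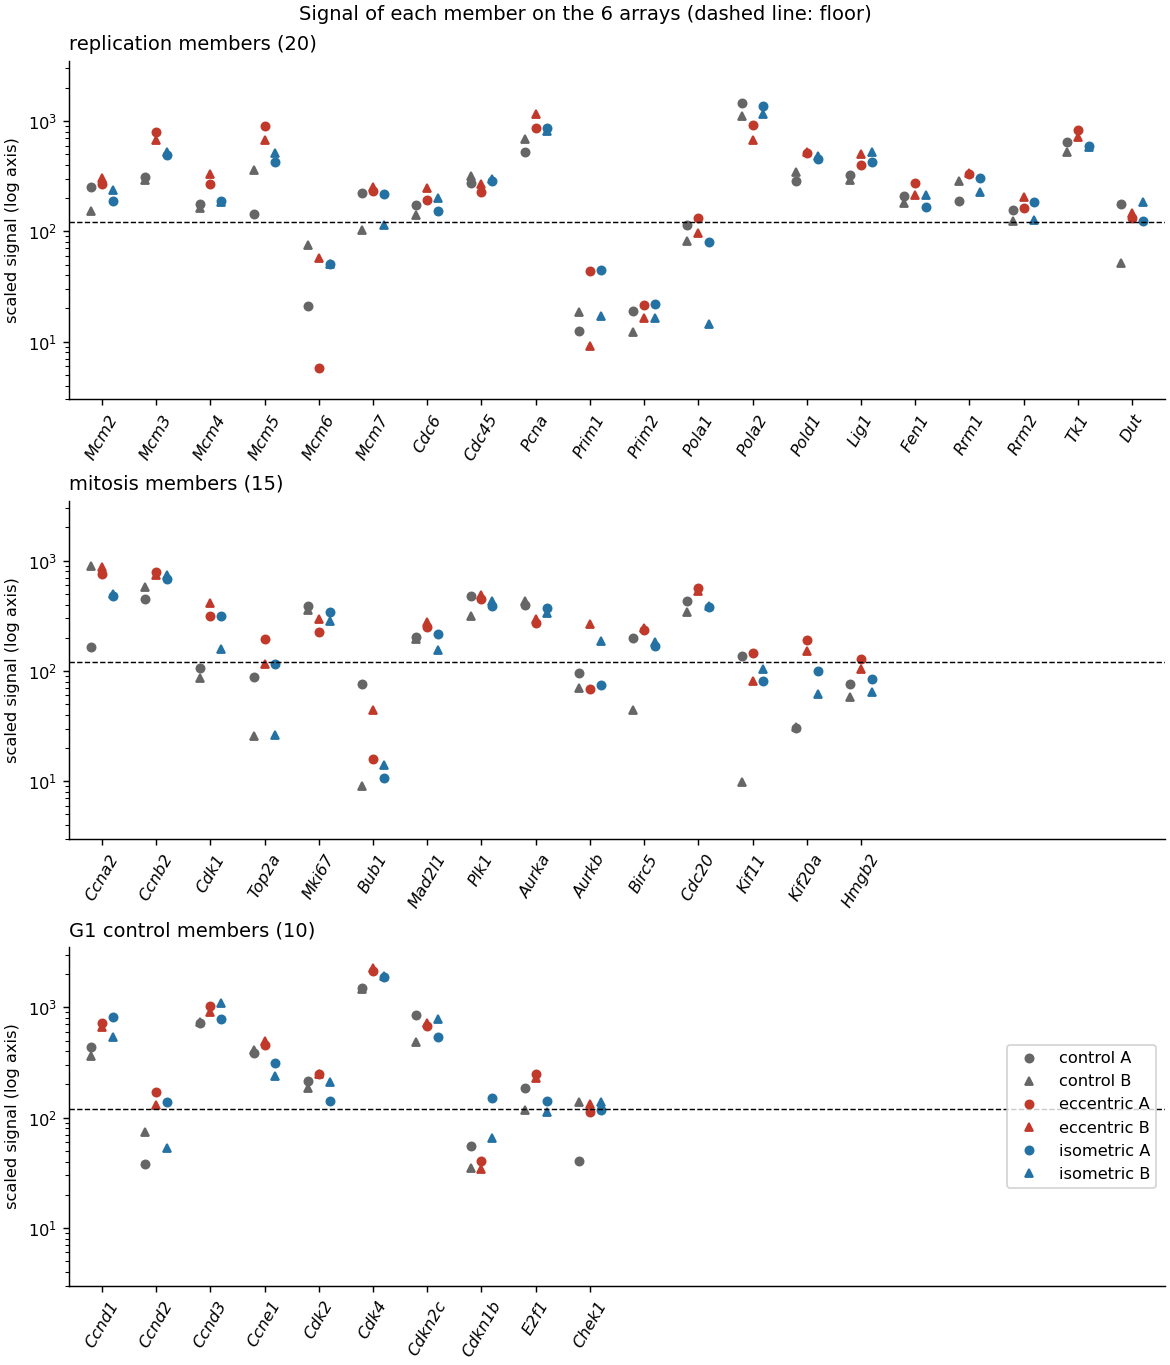
Scaled signal of each of the 45 members on the 6 arrays, on a log axis, by role; grey marks control, red eccentric and blue isometric arrays, circles array A and triangles array B, and the dashed line is the floor of 120.8. Mcm3, Mcm4 and Cdk1 show both eccentric arrays above both control arrays, the 2 control arrays of Ccna2 lie far apart, and Mcm6, Prim1, Prim2 and Bub1 stay under the line.

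The first comparison asks which cell cycle transcripts differ after lengthening contractions. In the eccentric pool 3 members were higher than in the control pool by the size rule, Mcm3, Mcm5 and Cdk1, and 0 were lower. These were 3 of the 34 measured members, while 5.16% of all 5682 measured genes were higher and 1.06% lower, so the share of members past 2-fold lay near that of the array as a whole. Differences below 2-fold were more one-sided. In 26 measured members both eccentric arrays lay above both control arrays and in 4 (Pola2, Cdc45, Aurka and, by its brighter probe set, Mki67) both lay below, where 30.8% of all measured genes were separated upward and 31.0% downward. Measuring favours members that are high in 1 pool, so the same was counted over the 27 members above the floor on all 6 arrays: 20 were separated upward and 4 downward, against 1444 and 1550 of 4838 genes. Over all 45 members on the array the median log2 difference was 0.41, with a range of 0.23 to 0.43 over the 4 array pairings, where the median of all genes was 0.

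The MCM proteins form the ring-shaped helicase that is loaded at origins and unwinds DNA at the fork. Mcm5 had signals of 143.8 and 357.1 on the control arrays, 898.1 and 668.6 on the eccentric arrays and 426.6 and 510.6 on the isometric arrays. The 3 pools did not overlap, with eccentric highest and control lowest, but the control arrays differed more than 2-fold between themselves. Its log2 difference from control was 1.77 in the eccentric pool, with pairings from 0.90 to 2.64, and 1.04 in the isometric pool, with pairings from 0.26 to 1.83. Mcm3 had 311.6 and 295.1 on the control arrays, 795.0 and 673.6 on the eccentric arrays and 490.5 and 525.0 on the isometric arrays, again without overlap. The eccentric mean of 734 ± 85.8 (SD, n = 2 arrays) stood against 303 ± 11.7 in control, a log2 difference of 1.27 or 2.41-fold, and the isometric difference of 0.74 did not reach 2-fold.

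The remaining MCM subunits differed less. Mcm4 had 176.6 and 163.2 on the control arrays, 269.3 and 331.9 on the eccentric arrays and 189.0 and 185.8 on the isometric arrays. The eccentric difference was 0.82 and the isometric one 0.14, both without overlap of arrays, so for this subunit the isometric pool lay close to control. Mcm2 had differences of 0.53 (eccentric) and 0.09 (isometric), and Mcm7 had an eccentric difference of 0.55 and was not measured in the isometric comparison. Over the 6 MCM subunits the median difference was 0.68 for eccentric and 0.12 for isometric against control, with Mcm6 counted at 0 and Mcm7 at its floored values.

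Cdk1, the kinase that with cyclin B drives entry into mitosis, was the third member past 2-fold. Its signals were 106.9 and 86.6 on the control arrays, both under the floor, 315.6 and 413.4 on the eccentric arrays, and 314.2 and 157.0 on the isometric arrays. Because control lay at the floor, its eccentric level is given as at least 2.99-fold higher and its isometric level as at least 1.84-fold higher, the latter short of 2-fold. The isometric arrays disagreed, with array A level with the lower eccentric array.

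The stretches upstream of the 3 members past 2-fold are shown because they hold short motifs tied to different phases of the cycle: E2F letters, usual for replication genes, the cell cycle homology region (CHR), usual for mitotic genes, and the CCAAT box bound by NF-Y. Each is the 250 bases before the gene start from RefSeq's mouse promoter table (GRCm38.p6), printed 5′ to 3′ on the gene's strand. Capitals mark every match to the E2F letters (TTTCCCGC, TTTGGCGC, TTTGCCGC or TTTCGCGC), the CHR letters (TTTGAA or TTCGAA) or CCAAT on either strand. The stretches are chr8:75109259-75109508 on the plus strand for Mcm5, chr1:20820313-20820562 on the minus strand for Mcm3 and chr10:69352913-69353162 on the minus strand for Cdk1.
Mcm5: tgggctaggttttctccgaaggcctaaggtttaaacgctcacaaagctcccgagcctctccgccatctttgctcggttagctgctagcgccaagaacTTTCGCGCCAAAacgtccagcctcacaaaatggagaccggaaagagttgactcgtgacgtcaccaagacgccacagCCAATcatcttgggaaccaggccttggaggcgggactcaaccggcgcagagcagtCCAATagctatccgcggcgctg
Mcm3: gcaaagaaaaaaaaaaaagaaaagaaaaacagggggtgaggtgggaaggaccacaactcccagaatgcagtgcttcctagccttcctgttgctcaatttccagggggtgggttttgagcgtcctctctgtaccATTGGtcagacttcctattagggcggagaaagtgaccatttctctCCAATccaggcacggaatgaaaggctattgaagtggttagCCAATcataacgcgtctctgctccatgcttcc
Cdk1: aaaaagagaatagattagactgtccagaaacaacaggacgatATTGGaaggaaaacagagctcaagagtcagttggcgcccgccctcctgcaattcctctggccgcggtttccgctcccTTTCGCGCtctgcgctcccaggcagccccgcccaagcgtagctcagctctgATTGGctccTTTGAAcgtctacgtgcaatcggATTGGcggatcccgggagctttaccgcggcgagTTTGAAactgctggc
In Mcm5 a pair of overlapping E2F matches on opposite strands begins 153 and 149 bases before the start. In Cdk1 an E2F match begins 131 bases before the start, and CHR letters begin at 71 and 15 bases before it. In Mcm3 the printed stretch holds CCAAT letters alone, and its 2 E2F matches begin 19 and 38 bases after the start.

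Of the other replication members, Pcna, Pold1 and Lig1 differed upward by less than 2-fold in both exercised pools, by the probe sets used. Pcna, the sliding clamp of the replicative polymerases, had 529.9 and 682.1 on the control arrays, 868.2 and 1159.2 on the eccentric arrays and 870.6 and 804.9 on the isometric arrays. Both exercised pools lay above control and overlapped each other, with differences of 0.74 and 0.48. Pold1, the catalytic subunit of polymerase delta, had 284.2 and 342.3 in control, 512.6 and 528.7 in eccentric and 450.4 and 482.0 in isometric, for differences of 0.74 and 0.58. Lig1, the ligase that seals Okazaki fragments, had 322.8 and 295.2, then 398.4 and 505.2, then 421.7 and 522.6 in the same order. Its differences of 0.54 and 0.60 were alike in the 2 exercised pools, and the eccentric and isometric arrays overlapped. Fen1, the flap nuclease of the same step, differed by 0.32 and -0.04. Cdc6, an MCM loading factor, differed by 0.50 and 0.18, and Cdc45, a part of the active helicase, by -0.26 and -0.02.

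Genes of nucleotide supply showed small eccentric differences. Rrm1 and Rrm2, the subunits of ribonucleotide reductase, had eccentric differences from control of 0.51 and 0.41 and isometric ones of 0.17 and 0.15. Tk1, thymidine kinase, differed by 0.41 and 0.02, and Dut, which removes dUTP, by -0.07 and 0.05 with overlapping arrays in both comparisons. By the probe sets used, the member with the lowest eccentric difference was Pola2, the accessory subunit of polymerase alpha. Its signals were 1469.8 and 1108.4 in control, 928.9 and 675.7 in eccentric and 1357.4 and 1153.0 in isometric. It differed from control by -0.69 in the eccentric pool, a separation downward that did not reach 2-fold, and by -0.03 in the isometric pool. These values are from a probe set chosen under relaxed rules. The other probe set of Pola2 gave -0.37 for eccentric against control, also separated downward. Against the isometric pool it gave -0.16, with overlapping arrays. Pola1, its catalytic partner, passed the floor on 1 array of the 6 and was not measured.

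**Figure D2:**
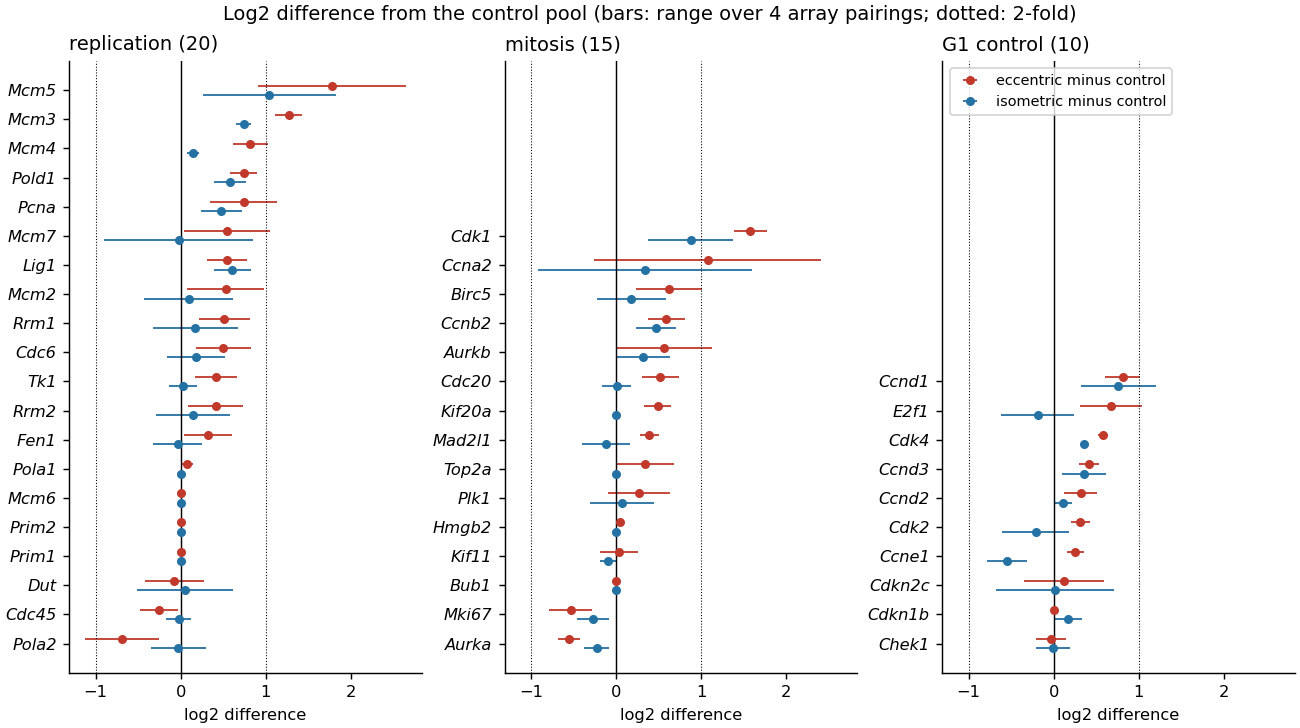
Log2 difference of each member from the control pool (x axis) for the eccentric pool in red and the isometric pool in blue, by role; points are differences of means over 2 arrays, bars the range over the 4 array pairings, and dotted lines 2-fold. Mcm5, Mcm3 and Cdk1 have eccentric points beyond the upper dotted line with bars above 0, and the bars of Ccna2 run across 0 in both comparisons.

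Among mitosis members, Ccna2, the cyclin of S and G2 phase, had the most uneven signals, with 164.6 and 897.4 on the control arrays, 751.6 and 878.1 on the eccentric arrays and 474.0 and 500.2 on the isometric arrays. Its eccentric difference of 1.08 exceeded 2-fold in size but the pairings ran from -0.26 to 2.42, so it was not counted. Without control A the difference was -0.14 and without control B 2.30: this value rests on which control array is used. Between the 2 exercised pools, where the control arrays play no part, the difference was 0.74 with pairings from 0.59 to 0.89. Ccnb2, the mitotic cyclin on the array, had 450.0 and 577.5 in control, 791.1 and 746.3 in eccentric and 682.2 and 735.4 in isometric. Its differences were 0.59 and 0.47, with no overlap with control in either.

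Members that act at the spindle and in the exit from mitosis split by direction. Cdc20, the activator of the anaphase-promoting complex, had 426.9 and 341.0 in control, 568.4 and 528.4 in eccentric and 380.8 and 386.5 in isometric. Its eccentric arrays lay above all others and the isometric ones within the control range, for differences of 0.52 and 0.01. Mad2l1, a spindle checkpoint protein, differed by 0.39 and -0.12, and Birc5 (survivin), a chromosomal passenger, by 0.62 and 0.18, with 1 control array under the floor for Birc5. Kif20a, a kinesin of cytokinesis, was above the floor only on the eccentric arrays (189.6 and 151.7, against 30.1 to 98.9 elsewhere), at least 1.40-fold over either pool. That probe set is shared with similar sequences. The other probe set of Kif20a lay below the floor on every array, with 13.4 and 59.1 in eccentric and 19.3 and 95.1 in isometric. Aurka, the centrosomal Aurora kinase, ran the other way, with 396.3 and 432.6 in control, 270.0 and 295.9 in eccentric and 375.3 and 332.6 in isometric. Its differences of -0.55 and -0.23 were both separated downward. Top2a, Aurkb, Kif11 and Hmgb2 did not lie above the floor on both arrays of any pool and were not measured.

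Of the 10 G1 members 8 were measured in the eccentric comparison. All 8 had differences above 0 and 7 were separated upward, against 48.1% and 30.8% of all measured genes, but 0 reached 2-fold. Ccnd2 and E2f1 were measured there only because both eccentric arrays passed the floor. Of the 6 G1 members above the floor on all 6 arrays, 6 were above 0 and 5 separated upward. Among all genes so detected these shares were 47.3% and 29.8%. Cdk4, the cyclin D kinase, had 1487.2 and 1460.0 in control, 2130.8 and 2278.5 in eccentric and 1869.5 and 1905.6 in isometric. By this probe set the 3 pools stood apart, with differences of 0.58 and 0.36. The other probe set of Cdk4, also without a suffix letter, gave 0.37 and -0.05, its isometric arrays overlapping control. Ccnd1 (cyclin D1) had 433.8 and 358.8, then 724.0 and 660.1, then 826.6 and 540.5 in the same order. Both exercised pools lay above control, by 0.81 and 0.76, and overlapped each other. Ccnd3 differed by 0.41 and 0.36. Ccnd2 was under the floor in control and at least 1.25-fold higher in the eccentric pool. Cdkn2c, the inhibitor p18, overlapped in every comparison (differences 0.12 and 0.01), and Cdkn1b, the inhibitor p27, was above the floor on 1 isometric array.

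Ccne1 and Cdk2, which act in the step from G1 into S phase, had eccentric and isometric means on opposite sides of control. Ccne1 (cyclin E1) had 388.8 and 410.7 on the control arrays, 457.7 and 496.6 on the eccentric arrays and 311.6 and 238.4 on the isometric arrays. The pools did not overlap, and the differences were 0.25 for eccentric and -0.55 for isometric. Cdk2, its partner kinase, differed by 0.31 and -0.21, the isometric arrays overlapping control. E2f1, the transcription factor, had 185.7 and 117.9, then 247.0 and 229.0, then 142.7 and 112.5 in the same order, an eccentric difference of 0.67. In the isometric comparison E2f1 was not measured, because 1 array of each pool lay under the floor, and Chek1, the replication checkpoint kinase, was measured in none.

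The second comparison sets the isometric pool against the same control pool, so the 2 comparisons share their control and their values are given side by side only. Mcm5 was the 1 member of 30 measured that was higher by the size rule, where 0.915% of measured genes were higher and 0.323% lower. That call was lost without control A (0.39) and without isometric B (0.91), so it rests on single arrays. Arrays were separated upward for 11 members (Mcm3, Mcm4, Mcm5, Pcna, Pold1, Lig1, Ccnb2, Cdk1, Ccnd1, Ccnd3 and Cdk4) and downward for 3 (Aurka, Ccne1 and, by its brighter probe set, Mki67), against 18.9% and 18.4% of all measured genes. Of the 27 members above the floor on all 6 arrays, 10 were separated upward and 3 downward, against 897 and 842 of 4838 genes. The median difference over the 45 members on the array was 0.02.

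The third comparison, eccentric against isometric, asks what lengthening adds to contraction. No member reached 2-fold: 0 of 34 measured, where 1.73% of genes were higher in the eccentric pool and 0.676% lower. The limma test, run over arrays as an alternative with Benjamini-Hochberg adjustment, called 0 members at 0.05 and had 8 of 34 with an unadjusted p under 0.05, near the 19.9% of all genes, and it compares these pools, not the conditions. Arrays were separated upward for 20 members and downward for 3 (Cdc45, Aurka and, by its brighter probe set, Pola2), against 28.5% and 25.1% of all measured genes. Of the 27 members above the floor on all 6 arrays, 15 were separated upward and 3 downward, against 1318 and 1257 of 4838 genes. The members with the widest gaps were E2f1 at 0.86, Ccne1 at 0.81, Ccna2 at 0.74 and Mcm5 at 0.73. E2f1 was read by a probe set shared with similar sequences, and its other probe set lay below the floor on all 6 arrays. The 5 measured MCM subunits were all separated upward, from 0.44 for Mcm2 to 0.73 for Mcm5. The median difference over the 45 members was 0.22, with a range of 0.16 to 0.23 over the array pairings, and 0 for all genes.

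Replication and mitosis members were set against each other by their median differences. In the eccentric comparison the median difference from control was 0.52 over the 16 measured replication members and 0.51 over the 10 measured mitosis members. The gap, replication minus mitosis, was 0.015 with an SD of 0.14 over the 4 array pairings, which ran from -0.011 to 0.31. Over all members on the array, 20 and 15, the gap was 0.065, with 2 of 4 pairings above 0. Over the 14 and 7 members above the floor on all 6 arrays it was 0.13, with 4 of 4 pairings above 0, from 0.10 to 0.38. By the probe sets used, the sign was toward replication in all 3 sets of members. Its size and its agreement between pairings moved with the members let in. The mitosis medians count Mki67 at -0.53, by its brighter probe set. The other probe set of Mki67 gave at least 1.09, on the other side of the mitosis median, so no order of the roles is given for this comparison. In the isometric comparison the medians were 0.15 for replication and 0.07 for mitosis, a gap of 0.081 with 4 of 4 pairings above 0, from 0.067 to 0.27. It was 0.070 over all members on the array, with 3 of 4 pairings above 0, and 0.15 over those above the floor on all 6 arrays, with 4 of 4 above 0, from 0.12 to 0.57. Between the exercised pools the gap was -0.13 over measured members, toward larger mitosis values, with pairings from -0.19 to -0.045. It was 0.013 over all members on the array, with 1 of 4 pairings above 0, and 0.13 over those above the floor on all 6 arrays, with 3 of 4 above 0. The sign between the exercised pools changed with the set of members, so no order of the roles is given there. None of these gaps was tested, since each pool is 1 sample. Of the replication members 70% lay above the floor on all 6 arrays, and of the mitosis members 46.7%, with all genes between them at 58.6%; that difference in detection was not tested.

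**Figure D3:**
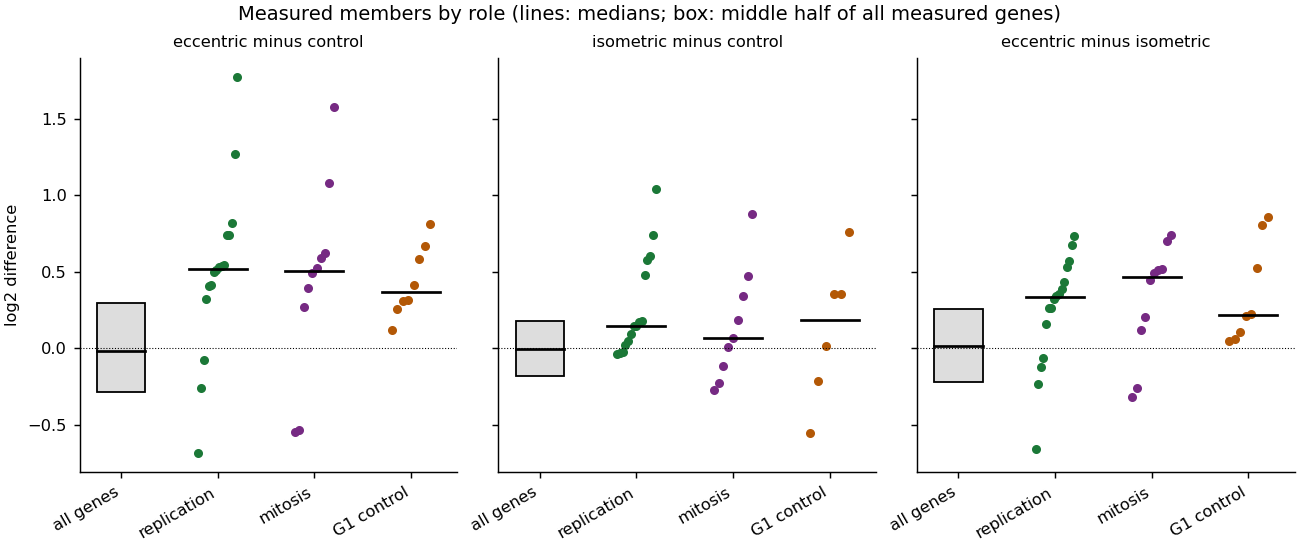
Log2 differences of the measured members by role in the 3 comparisons (y axis), with a black line at each median; the grey box marks the interquartile range of all measured genes. Over these measured members the eccentric medians of 0.52 for replication and 0.51 for mitosis lie at nearly the same height, and the isometric medians lie nearer 0.

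Of the members, 16 had more than 1 probe set and 29 had 1. The brightest was used, and 7 of the 45 used probe sets carry a suffix letter that marks probes shared with similar sequences or chosen under relaxed rules. In the eccentric comparison 7 members had another measured probe set, and for 3 of them it had the opposite sign: Pold1, Mki67 and Plk1. Mki67, the gene of the proliferation marker Ki-67, was the widest apart. Its brighter probe set, of the relaxed kind, had 389.8 and 360.1 in control, 225.4 and 296.9 in eccentric and 340.0 and 282.6 in isometric, a difference of -0.53 in the eccentric pool. Its other probe set, without a suffix, had 65.6 and 84.4 in control, 230.8 and 285.7 in eccentric and 207.0 and 162.5 in isometric, a difference of at least 1.09, as control lay under the floor, that would pass the size rule. No direction is therefore given for Mki67.

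The same limit touches other members. Plk1, a kinase of mitotic entry, had 0.27 by the probe set used and -0.57 and -0.26 by its others. Pold1 had 0.74 by the probe set used, which has no suffix, and -0.26 by a relaxed one. Mcm3 was read by a probe set shared with similar sequences, and its plain probe set gave 0.95 in the eccentric comparison (191.7 and 127.0 in control, 307.7 and 297.3 in eccentric), the same direction but under 2-fold. In the isometric comparison the plain probe set of Mcm3 gave 0.41, with overlapping arrays. The other probe set of Mcm5, a relaxed one, was not above the floor on both arrays of any pool. E2f1 and Kif20a were read by probe sets shared with similar sequences, and their plain probe sets lay below the floor on every array. Of the 8 members with another measured probe set, 5 had one of opposite sign in the isometric comparison: Pold1, Tk1, Mki67, Plk1 and Cdk4. In the comparison of the exercised pools 3 of 8 did: Pold1, Mki67 and Ccnd1.

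**Figure D4:**
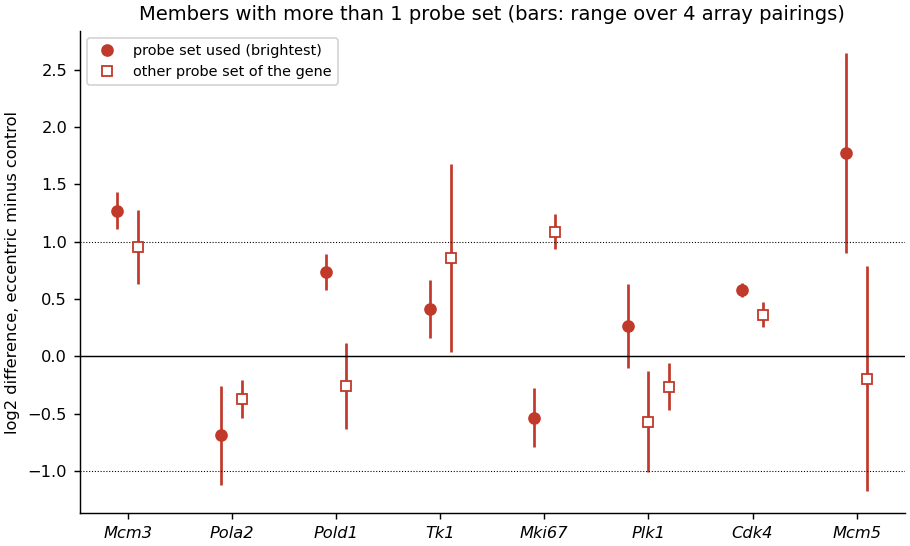
Log2 difference between the eccentric and control pools (y axis) for 8 members with more than 1 probe set; filled circles are the probe set used, open squares the others, bars the range over the 4 array pairings. The probe sets of Mki67 lie on opposite sides of 0, at -0.53 and at least 1.09, and those of Mcm3 on the same side, at 1.27 and 0.95.

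A further 106 genes of the same roles were listed by name, and 83 of them were on the array. In the eccentric comparison 7 of 59 measured were higher and 0 lower, against 5.16% and 1.06% of all measured genes. The 6 with the largest differences were Stmn1 (stathmin, a microtubule destabiliser, 1.94), Cks1b (a subunit of cyclin-dependent kinases, at least 1.71), Pold2 (a polymerase delta subunit, 1.56), Uhrf1 (which recruits maintenance DNA methylation, at least 1.32), Kif22 (a chromosome-binding kinesin, 1.18) and Prc1 (a midzone microtubule bundler, at least 1.17). For Cks1b, Uhrf1 and Prc1 both control arrays lay under the floor, so they are lower bounds and have no order among the rest. They count as measured in this comparison through their eccentric arrays alone. Of the further genes, 45 lay above the floor on all 6 arrays. Of those, 4 were higher and 0 lower in the eccentric comparison, against 4.30% and 0.930% of all genes so detected. Cks1b had 64.5 and 45.1 in control, 429.1 and 365.8 in eccentric and 203.5 and 254.9 in isometric, so it was detected in the exercised pools only. Uhrf1 had 106.1 and 56.0, then 333.7 and 273.3, then 65.4 and 141.5 in the same order. Of the called genes 2 were replication, 4 mitosis and 1 G1 genes. In the isometric comparison Stmn1 alone was higher (1 of 52 measured, 0 lower, against 0.915% and 0.323% of all genes). In the eccentric pool against the isometric one Pold2 (1.14) and Uhrf1 (1.21) were higher and 0 lower of 60 measured, against 1.73% and 0.676%. The isometric arrays of Pold2 disagreed (281.4 and 723.7), so its pairings ran from 0.26 to 2.02. Pold2 and Kif22 were each read by a relaxed probe set, the only one of the gene. The median over the 83 genes on the array was 0.08 in the eccentric comparison, below that of the 45 members.

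Summed macrophage and satellite cell markers stood with eccentric above isometric above control, without overlap of arrays, and the sums of the other marker lists did not. The 17 macrophage markers, 13 of them above the floor on all 6 arrays and Aif1 below it on all, summed to 10734 to 11415 in control, 32183 to 32420 in eccentric and 18123 to 19428 in isometric. By the probe sets used, the order of the pools was that of Mcm5, Mcm3 and Cdk4, eccentric above isometric above control. The other probe sets of Mcm3 and Cdk4 overlapped control in the isometric pool. The satellite cell and myoblast markers on the array, 7 of 10 listed, summed to 3014 to 3107, 4569 to 4878 and 3552 to 3913 in the same order, with Myf5 and Dll1 below the floor on every array and Pax7, Megf10 and Chrdl2 not analysed here. Single genes were less even than the sums. In eccentric against control, 14 of 15 measured macrophage markers were separated upward and 1 downward, against 30.8% and 31.0% of all measured genes. In isometric against control the median over the 7 satellite cell markers was 0. Of the 4 above the floor on all 6 arrays, 2 were separated upward and 1 downward, against 897 and 842 of 4838 genes. Endothelial markers, 9 of 10 listed, summed to 5624 to 6122, 6578 to 6809 and 5564 to 5984. These sums were highest in eccentric, with isometric overlapping control, as the signals of Cdc20 were. Fibroblast markers, 10 of 10, summed to 32033 to 32546, 30288 to 31974 and 32161 to 34693, and neutrophil markers, 10 of 10, to 1891 to 2389, 1854 to 2224 and 1544 to 1863, with overlap between control and eccentric in the latter. Singly, 7 of 10 fibroblast markers were separated upward and 2 downward in eccentric against isometric. Of all measured genes 28.5% and 25.1% were. Within the neutrophil list S100a8 was higher in eccentric than in control (1.47) and than in isometric (1.55), and S100a9 by at least 1.24 in both, while Csf3r had -0.88 and Elane -0.44 against control. These 4 were singled out after their values were seen. The 12 muscle fibre markers ran against the members in the eccentric comparison: 11 had differences below 0, 10 were separated downward and 0 reached 2-fold, with a median of -0.27. Of 9 lymphocyte markers on the array, Cd3e, Cd3d, Cd3g, Cd8a and Cd2 lay below the floor on all arrays. No marker was listed at 0. The part of any of these cell types in the differences of the members was not tested, and in bulk tissue more cells of a type and more RNA per cell cannot be told apart.

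The 3′ bias of control transcripts, a sign of RNA quality, also differed between arrays. The log2 ratio of the 3′ to the 5′ probe set of Actb was 0.04 in control, 0.44 in eccentric and 0.21 in isometric, and that of Gapdh -0.06, 0.12 and 0.10. The isometric arrays, which carry 1 RNA, were themselves apart, at 0.14 and 0.28 for Actb and -0.07 and 0.27 for Gapdh. The part of these ratios in the results was not tested.

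In the RefSeq promoter table, 38 of the 45 members had at least 1 window, which reaches from 250 bases before to 50 bases after a gene start. E2F letters were found in 8 of 18 replication members, 1 of 12 mitosis members (Cdk1) and 1 of 8 G1 members (Cdk2), against 2.61% of all 27025 genes in the table and 4.32% of the 6576 of them on the array. The replication members with a match were Mcm3, Mcm5, Mcm6, Mcm7, Cdc6, Lig1, Pola1 and Pold1. CHR letters were found in 4 of 18 replication, 10 of 12 mitosis and 0 of 8 G1 members, against 21.7% of all genes, and CCAAT letters in 11 of 18, 10 of 12 and 4 of 8, against 41.1%. In the medians that follow, members that were not measured entered at their floored values, and Mki67 by its brighter probe set. The median eccentric difference was 0.54 over the 10 members with E2F letters and 0.29 over the 28 without, and 0.29 over the 14 with CHR letters and 0.41 over the 24 without. For CCAAT letters it was 0.31 over the 25 with and 0.41 over the 13 without. These are descriptions of letters in a window, and say nothing of binding in this muscle.

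**Figure D5:**
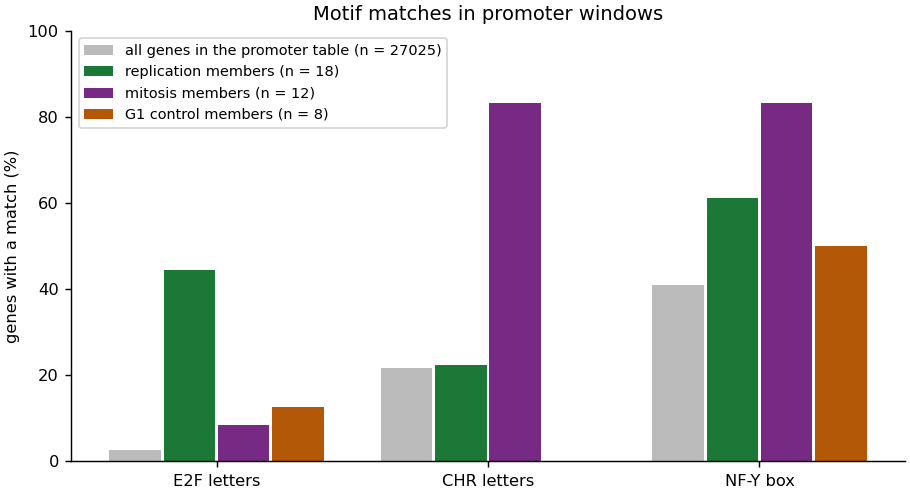
Share of genes (y axis, percent) with at least 1 match to the E2F letters, the CHR letters or CCAAT (NF-Y box) in their promoter windows, for all 27025 genes of the table in grey and for the members by role in colour. E2F letters are most frequent in replication members, 8 of 18, and CHR letters in mitosis members, 10 of 12.

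The size rule was set beside limma over arrays, which compares these pools and takes arrays of 1 RNA as replicates. With Benjamini-Hochberg adjusted p under 0.05 it called 5 members in the eccentric comparison, all higher, Cdk1, Cdk4, Mcm3, Mcm4 and Pold1, where 9.50% of measured genes were called. Mcm5, whose control arrays disagreed, was not among them, and Cdk4 and Mcm4, whose arrays agreed closely, were. In the isometric comparison limma called 0 members and 0.0179% of genes at that adjusted p. At an unadjusted p under 0.05 it had 9 of 30 members and 10.4% of genes. In eccentric against isometric it called 1.33% of genes.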

How the data were processed

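The values are linear intensity, 1 per probe set on each array, as the authors deposited them. Per the labels, total RNA of 4 animals was pooled per group and split onto 2 MGU74Av2 arrays. How probes were background-corrected and summarised, and with which software, is not given in the sources used here. Each array was scaled to one trimmed mean (2% removed at each end), values below the 40th percentile of all values (120.8) were set to that floor, and log2 was taken. A gene was read by its brightest probe set annotated to it alone, from the platform annotation. A fold is the geometric mean of one pool over that of the other after flooring, and "at least" marks a pool at the floor on both arrays. With 2 arrays per pool, the number of arrays limits the precision.

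The members and gene lists, and the rule for naming genes, were chosen with earlier results of these data known. All members could be named, of the related list the called genes (at most 6 per comparison), and of cell type markers whole lists. The calls were tested on simulated data, with planted changes larger than 2-fold in genes well above the floor. That simulation does not cover differences near or below 2-fold, or signals near the floor. Alternatives changed the scaling, floor, filter, fold threshold and probe sets, left out each array, and ran limma over arrays (plain, and with the letter A or B as replicate block); the preference for probe sets without a suffix letter was chosen after seeing the data. The letters did not pair the arrays: deviations of A from the pool means correlated at 0.03, -0.10 and -0.04 between pools. Fits with limma 3.58.1 ran in R 4.3.3. All else ran in Python 3.11.15 (pandas 2.3.3, numpy 2.4.6), with figures from matplotlib 3.10.9.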

Additional observations from a re-analysis of the deposited data

Results flagged for a closer look

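Ccne1, the cyclin that activates Cdk2 for entry into S phase, lay above both control arrays on both eccentric arrays and below both on both isometric arrays. Its eccentric and isometric differences from control therefore had opposite signs and stood 0.81 apart on the log2 scale. This difference was not tested, since each pool is 1 sample.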

How the results depend on the processing

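Scaling by quantiles or equal medians left the number of members called in each comparison as it was, and no direction of a called value reversed under the alternatives run. In the eccentric comparison 3 members were called, and 7 with a floor at the 20th percentile (8.63% of genes), 7 with no floor and log2(signal + 32) (5.47%), 11 at 1.5-fold (where 19.4% of genes passed), 5 by limma without a block, 1 (Mcm3) with the replicate block, and 3 to 4 with 1 array left out. In the isometric comparison 1 was called, and 3, 0 and 5 under the first 3 of these settings (3.78%, 1.71% and 6.21% of genes), 0 with the mean over probe sets, 0 by limma without and with the replicate block (9 and 8 at an unadjusted p under 0.05), 0 to 2 with 1 array left out (0 without control A, 2 without control B or isometric B), and 2 (Ccnd1 and Cdk1) when control A and isometric B are dropped together. Between the exercised pools 0 were called, and 4, 1 and 7 under those 3 settings (4.79%, 2.78% and 12.6% of genes), 0 to 1 with 1 array left out (Cdk1 without isometric A) and 0 by limma with the replicate block. Mcm3 fell short in the eccentric comparison with plain probe sets preferred (0.95), and Mki67 then passed (at least 1.09). Mcm5 fell short with the mean over probe sets (0.79) and was not called by limma.

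The replication minus mitosis gap in the eccentric comparison was -0.18 with no floor, and -0.09 to 0.14 with 1 array left out. In the isometric comparison it was -0.18 with a floor at the 20th percentile, -0.013 with no floor, -0.034 with plain probe sets preferred, and 0.069 to 0.22 with 1 array left out. Between the exercised pools it was 0.013 with no filter on dim genes, 0.047 with the mean over probe sets, -0.066 when control A and isometric B are dropped together, and -0.27 to -0.066 with 1 array left out. The cause of these shifts was not tested. Signal limits the mitosis members, with 7 of 15 above the floor on all arrays.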
